A study of Mus musculus with 8 samples.

Results

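The binding of CHD4 was set against H3K4me3 in neurons derived from iMOPs, the immortalized multipotent otic progenitors of the mouse inner ear. The members are all 4599 CHD4 peaks and all 5625 H3K4me3 peaks of the neurons, 10224 of the 26724 peaks in the 6 lists of the series, and the choice used the antibody and the cell state only. The lists come from CUT&Tag, a method that brings a transposase to an antibody's target and sequences the DNA it tags there, with 1 library of 500000 wild-type cells for each antibody and state, per the labels. The names of the lists hold the word merged, so pooled libraries are possible; each list was taken as 1 library. The neurons were kept in Neurobasal medium with 1 µM K03861, an inhibitor of the cell cycle kinase CDK2. The proliferating iMOPs, set beside them in places, grew in DMEM/F12 with 20 ng/ml bFGF, and both states came from the same immortalized line. With 1 library per group nothing below has a replicate check or a p-value. Intervals beside shares are exact 95% limits after Clopper and Pearson, for counting error alone. Read depth is unknown. The IgG libraries were not analysed here, and the values have no background level to be read against.

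CHD4 is the ATPase of the NuRD complex, which slides nucleosomes and carries the histone deacetylases HDAC1 and HDAC2. H3K4me3 is laid down by methyltransferases of the SET1 and MLL families on nucleosomes around active promoters, most of them rich in CpG, and broad H3K4me3 domains are known to mark genes of cell identity and high transcription. NuRD is best known for repression, but its subunits have been mapped to active promoters and enhancers in many cell types, the developing nervous system among them. The comparison asks where on the promoter landscape of the iMOP-derived neurons the remodeller lies.

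As a check of the label, H3K4me3 was sought at 15 neuron markers. It was listed at 4 of them in the neurons, Elavl3, Elavl4, Map2 and Tubb3, and at 3 in the proliferating cells, where Elavl3 lacked it. It was not listed at Dcx, Isl1, Pou4f1, Gata3, Prph, Rbfox3, Nefl, Nefm, Snap25, Stmn2 or Syt1 in the neurons. Of 6 markers of proliferating progenitors, Id1, Mki67, Sox2 and Top2a kept a peak in the neurons while Ccnd1 and Hes1 did not, and all 6 had one in the proliferating cells. Over all 21887 protein-coding genes, 6492 (29.7%) had H3K4me3 in the neurons and 8200 in the proliferating cells. In the neurons, the neuron markers thus had H3K4me3 at about the share of all genes, and the progenitor markers at a higher one. The list holds few of the genes that define a mature neuron, and these small counts do not bear out the label. RNA was not measured here.

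Each of 9 promoters below had its highest CHD4 or H3K4me3 signal within the 300 bases from 250 before the gene start. They are shown as single examples of the combinations. The sequences are RefSeq's for GRCm38.p6 (mm10), printed 5′ to 3′ along the direction of transcription. Capitals mark the 50-bp step of the list's coordinates that held the highest signal. At 4 promoters with both peaks the capitals mark the CHD4 maximum. These are Adgrg1, an adhesion receptor of neural progenitors (chr8:94984149-94984448, + strand), Cirbp, a cold-inducible RNA-binding protein (chr10:80167589-80167888, + strand), Ddit4, a stress-induced inhibitor of mTORC1 (chr10:59951721-59952020, - strand), and Mpv17l2, a mitochondrial protein (chr8:70760872-70761171, - strand).
Adgrg1: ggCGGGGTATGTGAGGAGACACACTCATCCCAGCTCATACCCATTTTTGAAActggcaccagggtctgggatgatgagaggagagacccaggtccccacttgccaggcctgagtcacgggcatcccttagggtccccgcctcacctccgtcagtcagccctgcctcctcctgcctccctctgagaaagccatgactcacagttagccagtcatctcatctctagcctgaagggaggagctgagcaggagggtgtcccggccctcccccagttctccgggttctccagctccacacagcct
Cirbp: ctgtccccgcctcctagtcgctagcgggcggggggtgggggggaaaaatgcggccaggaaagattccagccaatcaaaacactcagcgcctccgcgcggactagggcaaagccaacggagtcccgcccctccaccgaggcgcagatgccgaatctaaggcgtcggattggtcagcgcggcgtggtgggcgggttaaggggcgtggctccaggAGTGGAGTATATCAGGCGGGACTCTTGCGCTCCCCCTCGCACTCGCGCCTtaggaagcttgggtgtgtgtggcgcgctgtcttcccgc
Ddit4: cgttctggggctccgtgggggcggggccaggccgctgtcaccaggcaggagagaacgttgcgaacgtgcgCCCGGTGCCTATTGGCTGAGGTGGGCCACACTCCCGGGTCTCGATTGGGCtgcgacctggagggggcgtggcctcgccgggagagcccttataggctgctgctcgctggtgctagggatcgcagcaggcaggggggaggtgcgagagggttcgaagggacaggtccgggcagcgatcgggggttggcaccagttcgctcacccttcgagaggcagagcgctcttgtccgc
Mpv17l2: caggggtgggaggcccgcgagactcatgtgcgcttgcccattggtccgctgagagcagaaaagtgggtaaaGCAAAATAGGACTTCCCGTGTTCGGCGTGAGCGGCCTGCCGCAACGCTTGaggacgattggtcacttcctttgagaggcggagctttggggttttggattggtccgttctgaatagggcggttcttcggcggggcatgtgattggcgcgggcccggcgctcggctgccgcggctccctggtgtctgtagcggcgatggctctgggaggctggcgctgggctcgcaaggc
At 2 promoters with H3K4me3 and no CHD4 the capitals mark the H3K4me3 maximum: Anapc2, a subunit of the anaphase-promoting complex (chr2:25272216-25272515, + strand), and Prelid1, a mitochondrial lipid transfer protein (chr13:55321805-55322104, + strand).
Anapc2: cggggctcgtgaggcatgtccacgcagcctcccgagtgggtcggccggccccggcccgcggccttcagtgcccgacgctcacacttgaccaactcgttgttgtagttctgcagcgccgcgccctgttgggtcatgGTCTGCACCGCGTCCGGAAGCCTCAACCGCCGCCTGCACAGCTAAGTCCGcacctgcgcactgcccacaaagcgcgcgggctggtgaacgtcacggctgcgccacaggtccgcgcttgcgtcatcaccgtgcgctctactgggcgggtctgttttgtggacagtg
Prelid1: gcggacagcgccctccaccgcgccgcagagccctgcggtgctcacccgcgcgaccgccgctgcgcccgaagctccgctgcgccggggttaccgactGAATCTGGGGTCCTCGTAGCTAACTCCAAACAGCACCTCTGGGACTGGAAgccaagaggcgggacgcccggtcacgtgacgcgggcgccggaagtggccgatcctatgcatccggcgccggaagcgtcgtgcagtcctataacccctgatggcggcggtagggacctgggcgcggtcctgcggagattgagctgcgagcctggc
At 3 promoters with CHD4 and no H3K4me3 the capitals mark the CHD4 maximum: Cibar2, a BAR-domain protein (chr8:120177420-120177719, - strand), Col16a1, a collagen (chr4:130047590-130047889, + strand), and Rab17, a small GTPase of epithelial trafficking (chr1:90967618-90967917, - strand).
Cibar2: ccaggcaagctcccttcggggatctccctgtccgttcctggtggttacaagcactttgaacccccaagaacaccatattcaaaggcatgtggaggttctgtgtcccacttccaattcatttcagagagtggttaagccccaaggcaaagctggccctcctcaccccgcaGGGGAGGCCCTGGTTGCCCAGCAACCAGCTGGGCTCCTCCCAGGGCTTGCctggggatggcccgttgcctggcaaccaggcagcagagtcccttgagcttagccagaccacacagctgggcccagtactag
Col16a1: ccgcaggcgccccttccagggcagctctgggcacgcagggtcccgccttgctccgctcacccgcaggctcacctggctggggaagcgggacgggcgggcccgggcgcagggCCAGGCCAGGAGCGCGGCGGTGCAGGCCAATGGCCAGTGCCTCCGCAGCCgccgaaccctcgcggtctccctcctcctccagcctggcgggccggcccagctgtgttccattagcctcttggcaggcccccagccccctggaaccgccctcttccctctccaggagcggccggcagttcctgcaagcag
Rab17: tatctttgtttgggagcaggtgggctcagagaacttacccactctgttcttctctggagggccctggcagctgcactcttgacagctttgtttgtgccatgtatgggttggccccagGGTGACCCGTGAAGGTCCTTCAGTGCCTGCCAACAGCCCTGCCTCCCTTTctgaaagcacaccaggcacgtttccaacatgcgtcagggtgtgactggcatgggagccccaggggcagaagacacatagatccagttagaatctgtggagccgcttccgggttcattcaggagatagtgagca
These promoters are examples and do not stand for their classes. Anapc2 and Prelid1 held 34 and 38 CpGs, and both held CCGGAAG, the core of ETS-type sites, on one strand or the other. Promoters with H3K4me3 alone had a median of 25 CpGs with an upper quartile of 32, and 24.4% of them held CCGGAAG. Those with both had a median of 24 CpGs. Cirbp, Ddit4 and Mpv17l2 held 29, 26 and 27 CpGs together with CCAAT and GGGCGG. Adgrg1, with CHD4 and H3K4me3, held only 6 CpGs, and Cibar2 and Rab17, with CHD4 alone, held 4 and 5, while Col16a1 held 24. CCGGAAG was also in Rab17, and CCAAT with GGGCGG also in Col16a1.

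CHD4 lay more often on wide than on narrow H3K4me3 domains. Of the 5625 H3K4me3 peaks, 1238 shared at least 1 bp with CHD4 (22.0%, interval 20.9 to 23.1), and seen from the other side 1233 of the 4599 CHD4 peaks (26.8%) overlapped H3K4me3. Ranked by width, the share with CHD4 was 7.73% (6.24 to 9.45) in the narrowest quintile, which spans 1400 to 3250 bp. It was 12.8%, 17.2% and 23.7% in the middle quintiles and 48.6% (45.7 to 51.6) in the widest, which starts at 5900 bp. In the widest decile, from 7000 bp up, 340 of 562 peaks (60.5%) had CHD4, against 40 of 563 (7.10%) in the narrowest. The share therefore rose at every quintile, and the intervals of the narrowest and the widest lie far apart.

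A wide peak offers more bases to overlap, so the count was repeated for the 1 position of highest H3K4me3 signal. There the share was 7.73% in the narrowest quintile and 45.2% in the widest, so most of the rise was present at a single position. A requirement that CHD4 cover at least 50% of the H3K4me3 peak left a difference of 30.84 percentage points between the widest and the narrowest quintile, against 40.89 for any overlap. The widths of overlapping peaks also went together. The median CHD4 peak was 2750 bp on the narrowest H3K4me3 quintile, 3700, 4200 and 5100 bp on the middle ones and 7200 bp on the widest, with a Spearman correlation of 0.52 over the 1238 pairs as a description. When the narrower 50% of CHD4 peaks were kept, the difference at promoters between the widest and narrowest quintile was 6.862 percentage points, against 38.3 for all CHD4 peaks. Most of the relation was thus found with the wider CHD4 peaks.

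Over all peaks of the neurons, the share with CHD4 rose with the spread of H3K4me3 and showed no steady rise with its intensity. At a given width the share was higher at more intense peaks. By total signal, which grows with width, the share with CHD4 rose from 10.2% in the lowest quintile through 11.6%, 16.4% and 22.9% to 48.8% in the highest. By the highest signal of the peak it was 25.6% in the lowest quintile, 18.8% in the middle one and 25.5% in the highest. Mean signal, the total over the width, gave 26.3% in the lowest and 27.4% in the highest quintile. Over all widths the relation to intensity was thus shaped like a U, with 31.3% (27.5 to 35.3) of the weakest decile by highest signal carrying CHD4. CHD4-bearing peaks of that decile had a median width of 5700 bp against 4600 bp for the rest of it. Width and intensity were then ranked together, which separates them only in part. The median width was 5900 bp in the lowest decile of mean signal and 3400 bp in the highest, so few narrow peaks were weak. Within the highest mean signal (the upper tercile), CHD4 covered the H3K4me3 maximum at 73 of 747 peaks of the narrowest quintile (9.77%) and at 120 of 193 of the widest (62.2%). Within the lowest mean signal the shares were 9.40% in the second quintile by width and 40.2% in the widest, and 0 of 11 in the narrowest, where the exact interval reaches 28.5%. At a given width the share was highest in the upper tercile of mean signal in all 5 quintiles. The proliferating cells shared the rise with width, from 9.498% in the narrowest quintile to 56.96% in the widest, but differed in intensity. By highest signal their share was 22.68% in the lowest quintile, 20.5% in the second and 41.97% in the highest. By mean signal it was 26.49%, 20.4% and 40.56% in the same order.

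**Figure D1:**
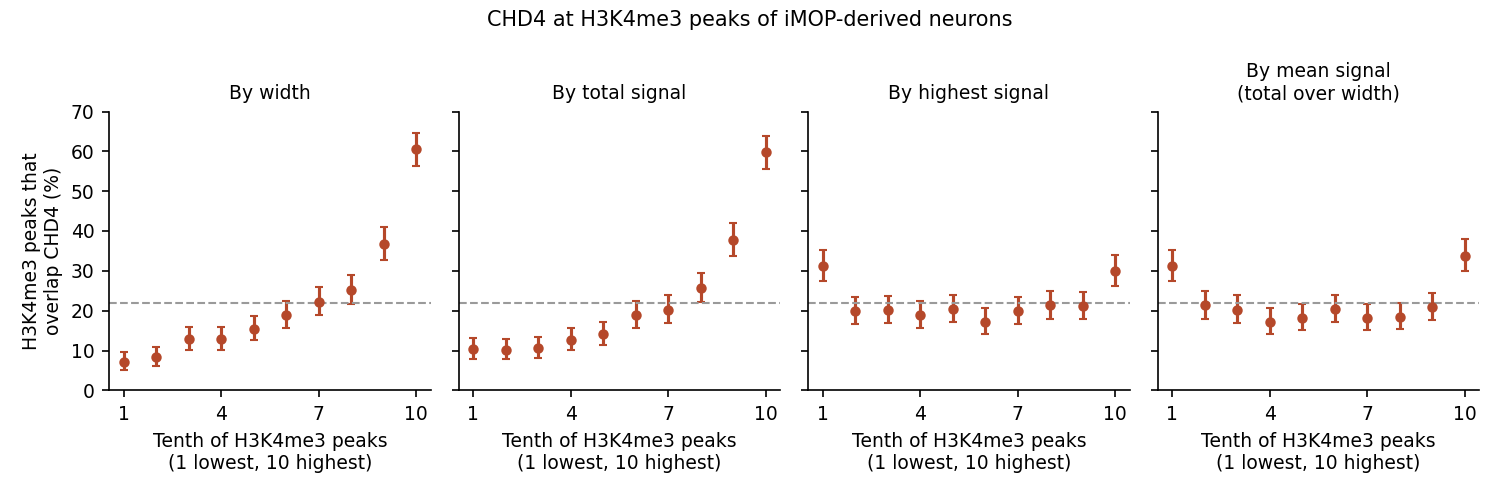
Share of H3K4me3 peaks of the neurons that overlap a CHD4 peak, in percent, over deciles of the 5625 H3K4me3 peaks by width, total signal, highest signal and mean signal; bars are exact 95% intervals and the dashed line is the share over all peaks (22.0%). The share climbs from 7.10% to 60.5% over the deciles of width and shows no steady rise over those of highest or mean signal.

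From the CHD4 side the order ran the other way. CHD4 peaks in the lowest quintile of total CHD4 signal overlapped H3K4me3 in 33.6% of cases and those in the highest in 20.9%. By highest CHD4 signal the shares were 36.5% and 19.3%. CHD4 peaks with H3K4me3 had a median width of 5100 bp and those without it 5200 bp, while their median percentile of total signal was 41.1 with H3K4me3 and 52.9 without. The strongest CHD4 peaks of the neurons thus lay more often outside H3K4me3. The proliferating cells showed the same order, with 48.2% in the lowest and 35.1% in the highest quintile of total signal.

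The 2 kinds of peak mostly met one to one and in nearly the same place. Of the 1238 H3K4me3 peaks with CHD4, 1201 (97.0%) had 1 CHD4 peak that met no other H3K4me3 peak. CHD4 lay wholly inside the H3K4me3 peak in 399 pairs (32.2%), H3K4me3 wholly inside the CHD4 peak in 341 (27.5%), and each reached past the other in 492 (39.7%). Another 6 pairs had the same bounds to the step of 50 bp, among them Epha4, an Eph receptor of axon guidance, where both peaks ran from 77512001 to 77517100 on chromosome 1. CHD4 covered a median of 86.0% of the H3K4me3 peak. The CHD4 maximum fell inside the H3K4me3 peak in 93.5% of pairs and the H3K4me3 maximum inside the CHD4 peak in 96.0%. In the proliferating cells the CHD4 peak was more often the inner one (59.0% of 2036 pairs), H3K4me3 lay inside CHD4 in 8.45%, and the median cover was 69.7%.

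Within the shared region the maxima were set apart. The median distance between the CHD4 and the H3K4me3 maximum was 512.5 bp, with quartiles of 150 and 1450 bp. They fell in the same step of 50 bp in 127 pairs (10.3%), within 250 bp of each other in 35.8%, within 500 bp in 50% (47.2 to 52.8), within 1000 bp in 68.1% and within 2000 bp in 81.3%. More than 5000 bp separated them in 96 pairs (7.75%). The distance was larger on wide H3K4me3 domains, with medians of 300, 250, 400, 550 and 900 bp from the narrowest to the widest quintile. It was larger still with wide CHD4 peaks, where the widest quintile had a median of 1850 bp against 300 bp in the narrowest. In the proliferating cells the median was 150 bp. The stronger 50% of CHD4 peaks by total signal, which grows with width, had a median of 912.5 bp, over 1.5 times that of all pairs. With them 39.58% of pairs lay within 500 bp. By highest CHD4 signal the order was the reverse. The median was 700 bp in the lowest quintile and 400 bp in the highest, with 41.2% and 53.6% of pairs within 500 bp.

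The direction of the offset was read at 792 H3K4me3 peaks with CHD4 that hold listed starts of genes on 1 strand only. The CHD4 maximum lay a median of 131 bp upstream of the start (-131, quartiles -313 and 117), and the H3K4me3 maximum a median of 309.5 bp downstream. CHD4 was highest upstream of the start at 508 of the 792 (64.1%), and H3K4me3 at 184 (23.2%). Along transcription, the CHD4 maximum preceded the H3K4me3 maximum at 532 (67.2%, interval 63.8 to 70.4), followed it at 185 (23.4%) and shared its step at 75 (9.47%). The median signed offset was -300 bp. In the stretch from 250 bp before to 50 bp after the start, the stretch printed above, 39.3% of CHD4 maxima and 16.2% of H3K4me3 maxima were found. CHD4 thus peaked mostly upstream of the start, at varied distances, and H3K4me3 mostly downstream of it.

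The same order held in each width quintile, where the CHD4 maximum preceded in 76.8%, 66.7%, 71.5%, 66.9% and 64.2% of peaks from the narrowest to the widest. Promoters with CHD4 had their H3K4me3 maximum farther downstream than the 2924 promoters without CHD4, whose median was 187 bp. This was so in each width quintile as well, from 180.5 bp with against 162.5 bp without CHD4 in the narrowest to 391 against 245.5 bp in the widest. In the proliferating cells the CHD4 maximum was at a median of -125 bp, close to its place in the neurons, while the H3K4me3 maximum lay at 69.5 bp with CHD4 and at 98 bp without it, the reverse order. The signed offset there had a median of -100 bp. H3K4me3 peaks with starts on both strands were not more common with CHD4 (15.7%, 147 of 939) than without (17.3%, 610 of 3534).

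**Figure D2:**
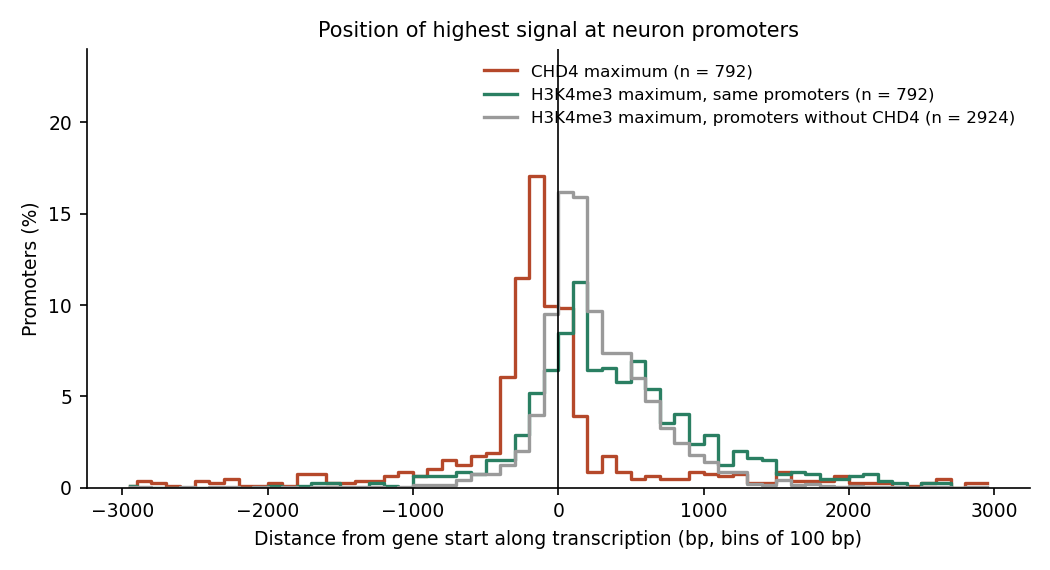
Position of the highest CHD4 signal (792 promoters) and of the highest H3K4me3 signal at the same promoters and at 2924 promoters without CHD4, as percent of promoters per bin of 100 bp along transcription; maxima more than 3000 bp from the start are not drawn. The CHD4 maxima pile up just before the start (median -131 bp) and the H3K4me3 maxima after it (309.5 bp with CHD4, 187 bp without).

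Single genes show the range of these arrangements. At Chd4 itself, on chromosome 6, a CHD4 peak of 4450 bp and an H3K4me3 peak of 7150 bp overlapped. The CHD4 maximum was 106 bp before the start and the H3K4me3 maximum 1244 bp after it. Sox2, a transcription factor of otic and neural progenitors on chromosome 3, carried one of the widest H3K4me3 domains of the neurons (19950 bp), and its CHD4 peak of 3950 bp covered only the part around the start, with the maximum at -370 bp. Epha4 had its CHD4 maximum at 13 bp and its H3K4me3 maximum at 1363 bp. Cdkn1b, which encodes the CDK inhibitor p27 and is expressed as progenitors leave the cell cycle, had the maxima close together at 74 and 174 bp. Neurog2, a proneural transcription factor, had both downstream of the start at 1289 and 1239 bp. At Tubb3, the neuronal beta-tubulin, the order was turned, with the CHD4 maximum at 1547 bp and the H3K4me3 maximum at -78 bp. Dll1, a Notch ligand on chromosome 17, had H3K4me3 over 15350 bp with its maximum at 1098 bp, and the CHD4 maximum lay upstream, at -5702 bp. Map2, a microtubule protein of dendrites, had an H3K4me3 peak of 3050 bp and no CHD4. Hes1, a Notch effector, had CHD4 and no H3K4me3 in the neurons, and its gene end was used because no start was listed. Neurod1 had neither.

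The largest distances were found with very wide CHD4 peaks. Hes5, another Notch effector, had its CHD4 maximum far upstream, at -12398 bp, and its H3K4me3 maximum 3652 bp downstream. The CHD4 maxima of Trmt61a, a tRNA methyltransferase, and Tyro3, a receptor tyrosine kinase, lay 16120 and 15161 bp downstream. The other extreme was a shared step, found with strong CHD4 peaks at Zbtb7b, Olfml3, H2ac10 and Klf10. At Olfml3 the H3K4me3 peak had nearly the lowest highest signal of the list, with a percentile of 0.0, and the shared maximum lay 1726 bp downstream of the start.

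**Figure D3:**
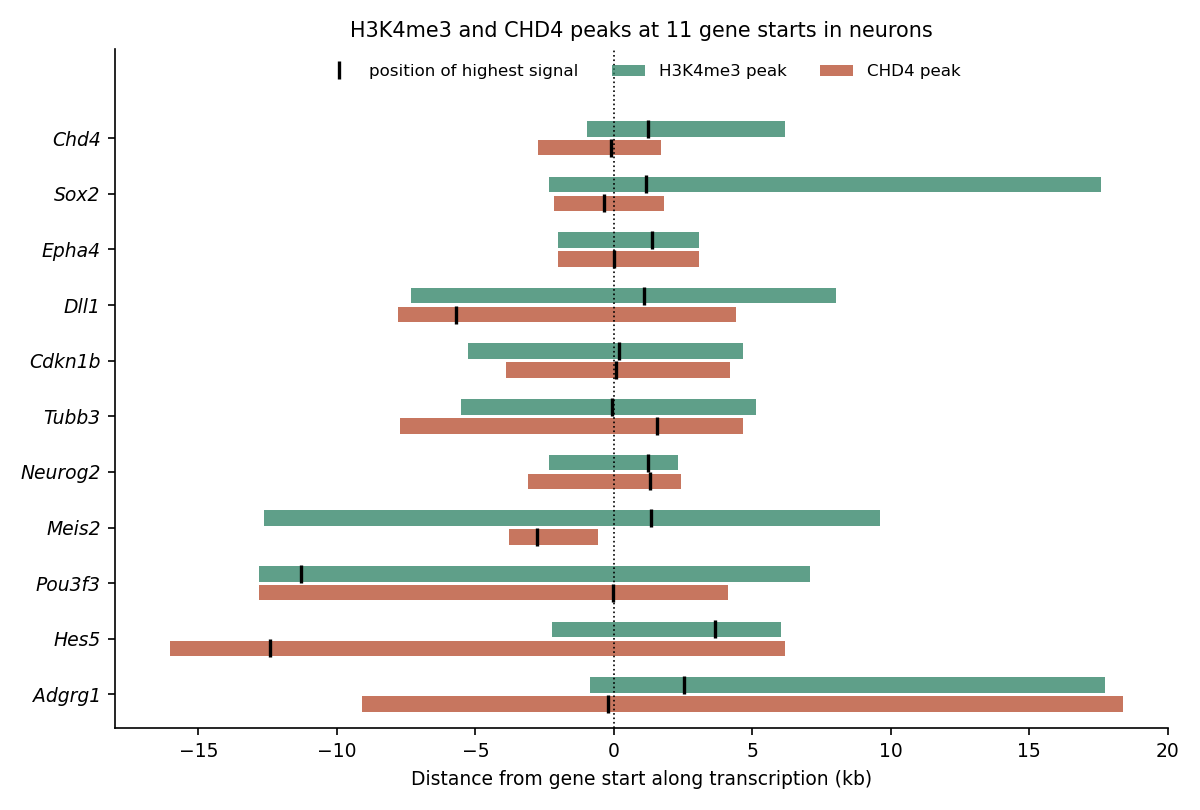
H3K4me3 (green) and CHD4 (brown) peaks at 11 gene starts in the neurons by distance from the start along transcription in kb; black ticks mark the highest signal. At Chd4, Sox2, Epha4 and Adgrg1 the CHD4 tick sits near the start and the H3K4me3 tick downstream, while at Dll1 and Hes5 the CHD4 tick lies far upstream (-5702 and -12398 bp).

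The widest promoter domains with CHD4 belonged to Nfib, Meis2, Dbp, Sox2, Pou3f3, Atp5d, Adgrg1 and Ccdc85c, with H3K4me3 over 18300 to 23150 bp. Nfib, Meis2 and Pou3f3 encode transcription factors of neural development. On these wide domains CHD4 took different forms. At Meis2 it was a peak of 3200 bp upstream of the start, with its maximum at -2756 bp inside an H3K4me3 domain of 22250 bp. At Pou3f3 it ran for 16950 bp from the same left bound as the H3K4me3 peak, and its maximum lay at -43 bp while that of H3K4me3 lay at -11293 bp. At Adgrg1, whose promoter is printed above, CHD4 spanned 27500 bp and peaked at -224 bp, and H3K4me3 spanned 18600 bp and peaked at 2526 bp. The widest domains without CHD4 belonged to Hoxa4, Bahcc1, Fasn, Sp8, Ndufa4l2, Rhof, Slc7a5 and Nr2f1, with 15000 to 21950 bp. Fasn encodes fatty acid synthase and Slc7a5 an amino acid transporter, while Sp8 and Nr2f1 encode transcription factors of neural patterning, so wide domains at developmental regulators were found with and without CHD4.

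Genes were then sorted by what lay within 1 kb of their start. Of 21887 protein-coding genes, 6492 had H3K4me3 (29.7%) and 1383 had both marks (6.32%), 5109 had H3K4me3 alone, 487 had CHD4 alone and 14908 had neither. CHD4 was thus listed at 21.3% of genes with H3K4me3 and at 3.16% of genes without it. For 17492 genes the start was listed, and among these the shares were 21.2% and 2.84%; for the other genes both ends were used. In the proliferating cells the shares were 25.4% and 1.80%. Neighbouring genes share peaks, and the 1383 genes with both hold 1121 distinct H3K4me3 peaks. The share of genes with CHD4 rose with H3K4me3 width from 7.19% under 3000 bp, 14.1% from 3000 to 5000 bp and 27.7% from 5000 to 7000 bp to 51.0% from 7000 to 10000 bp and 63.9% (129 of 202, interval 56.8 to 70.5) above that. The median H3K4me3 peak was 5650 bp wide at genes with both and 4150 bp at genes with H3K4me3 alone.

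CHD4 was also frequent at the few H3K4me3 peaks that did not lie at a coding gene start. It overlapped 1146 of 5344 H3K4me3 peaks at a coding start (21.4%), 24 of 75 at the start of a long noncoding RNA only (32.0%, interval 21.7 to 43.8) and 68 of 206 at neither (33.0%, 26.6 to 39.9). Peaks that held 3 or more gene starts had CHD4 in 21 of 37 cases and were wide, with a median of 8400 bp. H3K4me3 peaks without CHD4 were seldom just beside it: CHD4 lay within 5000 bp of 123 of 4387 (2.80%).

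p300 is an acetyltransferase of enhancers and promoters. Of 965 neuron p300 peaks, 962 overlapped CHD4 and 139 overlapped H3K4me3. A p300 peak lay at 148 of the 1383 genes with both (10.7%, 9.12 to 12.5) and 56 of the 487 with CHD4 alone (11.5%, 8.80 to 14.7). It lay at 0 of 5109 genes with H3K4me3 alone, with an exact interval that reaches 0.0722%. Since nearly every p300 peak overlapped CHD4, the last value was largely set by that overlap and is no separate result. On H3K4me3 peaks with CHD4, p300 was found at 3 of 87 in the narrowest width quintile (3.45%) and at 3 of 144, 13 of 193 and 28 of 267 in the next ones. In the widest it was at 89 of 547 (16.3%, 13.3 to 19.6). A wide peak offers more bases to overlap, and the median H3K4me3 width of these peaks ran from 2850 to 7450 bp. The p300 count was not repeated at a single position, so a rise beyond width was not tested.

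Most genes with both marks in the neurons had both in the proliferating cells too. Of the 1383, 1166 (84.3%) had both there and 200 (14.5%) H3K4me3 alone. Over all 21887 genes, 9.52% had both in the proliferating cells, 27.9% H3K4me3 alone, 1.13% CHD4 alone and 61.4% neither. Of the 5109 genes with H3K4me3 alone, 4401 (86.1%) had H3K4me3 alone there and 608 (11.9%) had both. The 487 genes with CHD4 alone were mixed: 151 (31.0%) had both in the proliferating cells, 129 (26.5%) CHD4 alone, 45 (9.24%) H3K4me3 alone and 162 (33.3%) neither. Genes with both were shorter than those with H3K4me3 alone, with median lengths of 17910 and 25504 bp.

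CHD4 at genes without H3K4me3 looked different. The median CHD4 peak there was 6800 bp wide against 5250 bp at genes with both, and its maximum was less often at the start: it lay within 500 bp of the start in 142 of 347 genes (40.9%, 35.7 to 46.3) against 704 of 1120 (62.9%, 60.0 to 65.7). The strongest of these peaks reached gene starts, or gene ends where no start was listed, at Fbxw8, Flrt1, Gpr153, Spns3, Cibar2, Ccdc167, Slc6a17 and Cabp7. Their widths were 15650 to 41050 bp. Flrt1 encodes a leucine-rich repeat adhesion protein, and Slc6a17 a transporter of synaptic vesicles. Only Cibar2, printed above, had its CHD4 maximum within 500 bp of a listed start among these 8 (-56 bp). At Gpr153, Ccdc167, Slc6a17 and Cabp7 it lay at -6437, 5042, 9015 and -10346 bp, and the other 3 had no listed start.

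The promoter sequences differed with the combination. In the 300 bases around the start, the median ratio of observed to expected CpG was 0.80 at 1120 genes with both, 0.85 at 4173 with H3K4me3 alone, 0.59 at 347 with CHD4 alone and 0.34 at 11852 with neither. The median CpG number was 24, 25, 14 and 6 in the same order. Promoters with both thus resembled other H3K4me3 promoters in CpG, and those with CHD4 alone lay between them and promoters with neither. Short elements were searched on both strands as exact letters. CCGGAAG, the ETS-type core seen in Anapc2 and Prelid1, occurred in 12.7% of promoters with both (10.8 to 14.8) and 24.4% with H3K4me3 alone (23.1 to 25.7), against 12.0% of all 17492 promoters. It was less frequent with CHD4 in each width quintile, with 12.2% against 26.9% in the narrowest and 12.7% against 24.8% in the widest.

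CCAAT, the box bound by NF-Y, went the other way, with 47.7% (44.7 to 50.7) at promoters with both, 38.2% (36.7 to 39.7) with H3K4me3 alone and 38.9% over all. GGGCGG, the GC box bound by Sp factors, occurred in 75.5%, 70.5% and 46.3%. TATAAA was found in 5.71% with both and 4.94% with H3K4me3 alone, and in 13.3% with CHD4 alone, close to the 13.2% of all promoters. The E-boxes CAGCTG and CAGATG, of the kind bound by proneural factors, occurred in 20.2% and 15.0% of promoters with CHD4 alone and in 15.2% and 14.7% of all, and the E-box CACGTG in 6.92% against 7.75%. A match of letters is not a bound site, and the elements were counted whether or not they overlapped another one. CAGCTG and CACGTG read the same on both strands.

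**Figure D4:**
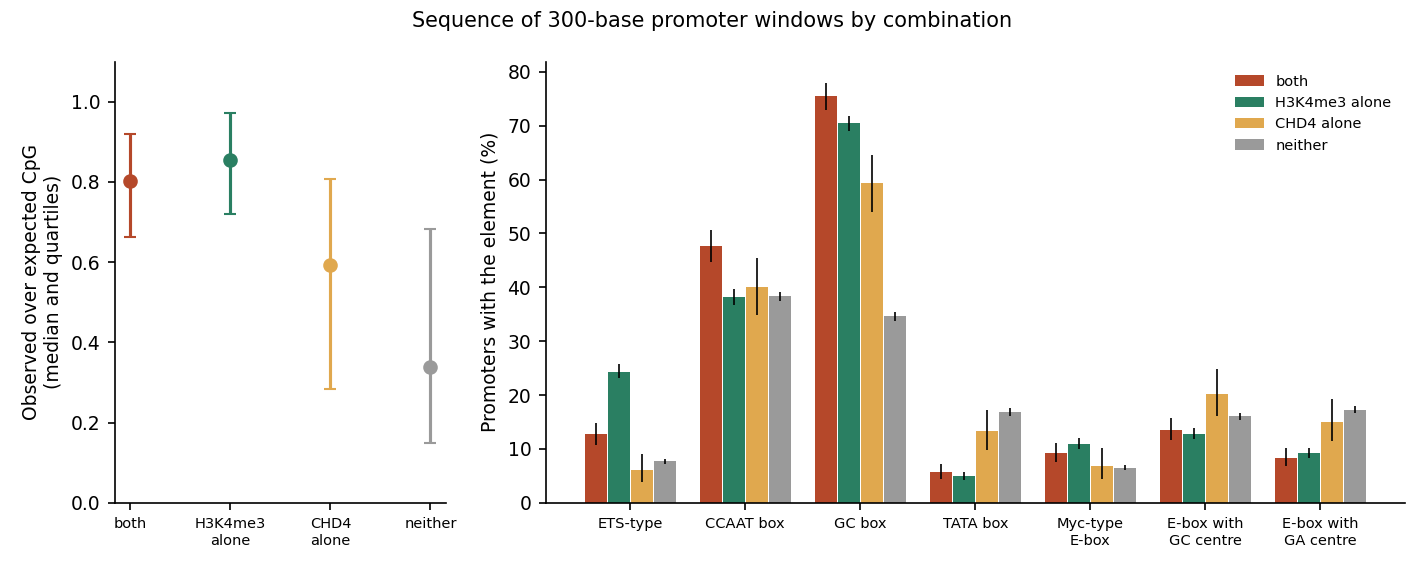
Left, observed over expected CpG in 300-base promoter windows (median and quartiles) for the 4 combinations of H3K4me3 and CHD4; right, percent of promoters with each of 7 elements, with exact 95% intervals. The ETS-type core is less frequent with both marks (12.7%) than with H3K4me3 alone (24.4%), and the CCAAT box more frequent (47.7% against 38.2%).

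The kinds of genes in each combination were counted in 27 lists, whose members with H3K4me3 are read against the 21.3% of all such genes that had CHD4. Members without a listed start were read at both gene ends, so a combination there need not lie at the start. Signalling and guidance genes stood at the upper end. Of 22 Eph receptors and ephrins, which steer axons by contact, 12 had H3K4me3 and 9 of these had CHD4, among them Efna4, Ephb3, Efna3 and Epha4. Efna1, Epha5 and Ephb4 had H3K4me3 alone. Of 31 semaphorins, plexins and neuropilins, 14 had H3K4me3 and 11 of these CHD4, and Plxnb2, a plexin receptor, carried both over about the same stretch (14150 and 14100 bp). Sema4b, Plxnb1 and Sema5b had H3K4me3 alone, and Sema6b and Sema3f, the latter read at a gene end, CHD4 alone. Slit, Robo and netrin genes differed, with CHD4 at 3 of 8, Draxin, Srgap2 and Ntn3, while the receptor genes Dcc, Robo2 and Neo1 were among the 5 with H3K4me3 alone. Slit1, a secreted repellent read at a gene end, had a CHD4 peak of 11650 bp and no H3K4me3.

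Of 22 Notch pathway genes, 13 had H3K4me3 and 10 of these CHD4. Lfng, a glycosyltransferase that modifies Notch, the ligand Dll1, the receptor Notch1 and Hes6 had the strongest CHD4 peaks among them. Their percentiles of total CHD4 signal were 90.9 to 98.3, and their CHD4 and H3K4me3 maxima lay 1050 to 6800 bp apart. Nrarp, Rfng and Maml1 had H3K4me3 alone. The ligand Jag2 had CHD4 alone, and so had the effector Hes1, which was read at a gene end because no start was listed. Targets and feedback genes of TGF-beta, BMP and Wnt signalling had CHD4 at 9 of 17, including the receptors Fzd7 and Lrp5. Immediate early and AP-1 genes had it at 9 of 13, among them Jun, Jund and Junb, and at Junb the maxima shared a step 2123 bp downstream of the start.

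Transcription factors in the list of SoxC, NFI, Meis and Pou3f genes, which also holds Irx, Pbx, Zic and other Sox genes, had CHD4 at 15 of 20 with H3K4me3, and 14 of these 20 lay in the widest quintile of H3K4me3 width. Sox8, Pou3f3, Irx5 and Sox21 had the strongest CHD4 peaks. Zic1, with 10000 bp of H3K4me3, and Pou3f4 were among the 5 without CHD4. Nfix had CHD4 alone. Of 27 neuronal transcription factors 7 had H3K4me3 (25.9%), near the 29.7% of all protein-coding genes. CHD4 was at 3 of these 7: Neurog2, and Insm1 and Scrt1, which were read at a gene end. Ebf3, Prox1 and Zeb1 were among those with H3K4me3 alone. Neurod2, Myt1 and Nhlh1 had CHD4 alone in the neurons and neither mark in the proliferating cells. At Neurod2, a differentiation factor, the CHD4 peak was 26150 bp wide with its maximum at -4930 bp, and at Nhlh1 it was 5900 bp wide with the maximum 21 bp from the start.

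Among cytoskeleton and axon genes, 8 of 14 with H3K4me3 had CHD4, with Tubb2b, Tubb3, Elavl3 and Stmn1 among them. Elavl3, an RNA-binding protein of neurons, had neither mark in the proliferating cells and both in the neurons. Elavl2, Elavl4 and Crmp1 had H3K4me3 alone. Synapse and ion channel genes mostly had no peak: 6 of 33 had H3K4me3 (18.2%, against 29.7% of all genes). Only Dlg4 had CHD4 with H3K4me3, and Hcn2 and Stx1a had CHD4 alone. Among otic progenitor regulators, 9 of 30 had H3K4me3 (30.0%, about the share of all genes). Id2, Id1, Myc and Sox2 had CHD4 with H3K4me3, and Id1 and Myc were read at a gene end. Id3 and Etv5, which had both in the proliferating cells, had CHD4 alone in the neurons.

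NuRD genes had CHD4 at 7 of 11 with H3K4me3. These were Cdk2ap1, Mbd3, Hdac2, Gatad2a, Chd4, Gatad2b and Rbbp4. At Hdac2 and Gatad2a the H3K4me3 peaks were narrow, 3150 and 2400 bp, and the CHD4 maxima lay 169 and 91 bp before the start. Mta1, Mta2, Mta3 and Hdac1 had H3K4me3 alone, and Chd3, the paralog of Chd4, had CHD4 alone. Mta3, Hdac1 and Chd3 had no listed start and were read at a gene end. A list of H3K4 methyltransferases, H3K4 demethylases, reader proteins and the related H3K27 demethylases stood near the background, with CHD4 at 4 of 19. These were the methyltransferase Kmt2b, the readers Ing1 and Ing2, and Kdm6b, which removes methyl groups from H3K27. Near the background too were other remodellers and p300/CBP, with 5 of 18.

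Genes of basic cell functions differed among themselves. H3K4me3 was at 18 of 25 proteasome genes, 21 of 28 respiratory chain genes, 24 of 30 cell cycle progression genes, 25 of 26 ribosomal protein genes and 26 of 27 splicing factors. Of those with H3K4me3, proteasome genes had CHD4 at 1 of 18 (Psmb3) and genes of the mitochondrial respiratory chain at 1 of 21. Their H3K4me3 peaks lay at median width percentiles of 24.8 and 42.5. Cytosolic ribosomal protein genes had wide H3K4me3, at a median percentile of 87.9, and CHD4 at 6 of 25, all 6 within the 16 that lay in the widest quintile. Splicing factors had CHD4 at 8 of 26, led by Ptbp1, Hnrnpa2b1, Hnrnpl and Hnrnpa1. Cell cycle progression genes had it at 5 of 24 (E2f1, E2f2, E2f3, Mcm7 and Cdk4), while Cdc20, Aurka and Plk1, with 6850 to 11550 bp of H3K4me3, had none. Cell cycle exit genes had it at 5 of 9: Gadd45g, Gadd45a, Cdkn1b, Btg1 and Btg2. Cdkn1a and Cdkn2d, which encode the CDK inhibitors p21 and p19, had CHD4 alone in the neurons and both marks in the proliferating cells.

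Histone genes were the list with most members at CHD4 without H3K4me3. Of 26, 14 had CHD4 alone, 7 had both and H1f0 had H3K4me3 alone. They sit in clusters of near-identical copies, where reads can be split between copies, and their CHD4 calls rest on 12 distinct peaks, so the count per gene is uncertain. Hox genes had H3K4me3 at 3 of 39, and 1 of these had CHD4. Markers of other cell types were mostly without peaks, as were 68.1% of all protein-coding genes. Hair cell markers had H3K4me3 at 1 of 20, glial markers at 2 of 16, mesenchyme markers at 3 of 16, liver markers at 1 of 20 and blood and endothelium markers at 0 of 14, and CHD4 joined H3K4me3 at Pmp22, Vim and Apoa2 among them.

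Since CHD4 went with width, the lists were also counted outside the widest quintile, where CHD4 was at 787 of 5194 genes (15.2%). There it was at 6 of 8 Notch genes, 4 of 5 semaphorins and plexins, 3 of 5 Eph and ephrin genes, 6 of 10 immediate early genes, 4 of 8 NuRD genes and 5 of 10 cytoskeleton genes. It was at 0 of 9 ribosomal protein genes, 0 of 13 proteasome genes, 0 of 16 respiratory chain genes and 3 of 16 splicing factors. Within the widest quintile, where 596 of 1298 genes (45.9%) had CHD4, it was at 12 of 14 SoxC, NFI, Meis and Pou3f genes, 7 of 9 semaphorins and plexins, 6 of 7 Eph and ephrin genes and 6 of 16 ribosomal protein genes. Some lists had CHD4 mostly inside the widest quintile: Slit, Robo and netrin genes at 3 of 4 inside and 0 of 4 outside it, other remodellers and p300/CBP at 4 of 7 and 1 of 11, and cell cycle progression genes at 4 of 8 and 1 of 16. The numbers of genes are small.

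**Figure D5:**
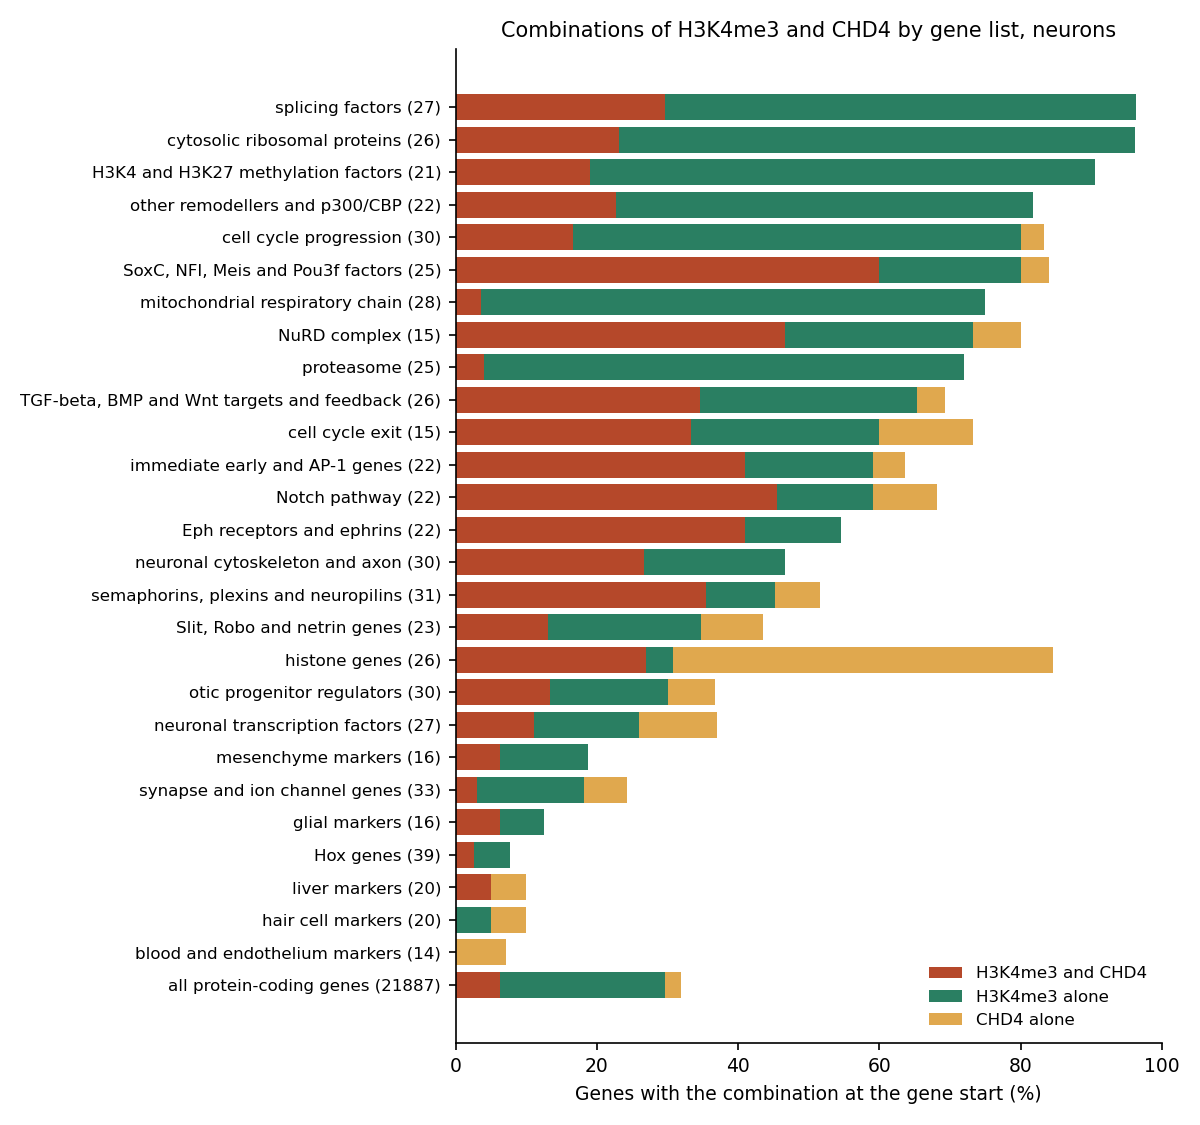
Percent of the genes in each of 27 lists, and of all 21887 protein-coding genes, with H3K4me3 and CHD4, H3K4me3 alone or CHD4 alone at the gene start in the neurons; list sizes are in brackets. Nearly all of the coloured part is green (H3K4me3 alone) for proteasome and respiratory chain genes. It is mostly brown (both) for Eph and ephrin, semaphorin and plexin, Notch and SoxC, NFI, Meis and Pou3f genes, and mostly yellow (CHD4 alone) for histone genes.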

How the data were processed

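CUT&Tag peak lists for CHD4, H3K4me3 and p300 were used, 1 sample per antibody and state in the labels. The list names hold the word merged, no label says whether libraries were pooled, and each list was treated as 1 library. Per the submitters' processing notes, Bowtie2, deepTools and SEACR were used with the build mm10; versions, parameters and the use of the IgG libraries are not given in the sources used here. Each list gives position, total signal, highest signal and the interval of highest signal. The signal is the authors' deposited value. Since no source states its scale, it served only to rank peaks within 1 list. Positions come in steps of 50 bp and are printed counted from 1.

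Overlaps of at least 1 bp, offsets between the centres of the intervals of highest signal, and shares were computed in SciPy 1.17.1, pandas 2.3.3 and numpy 2.4.6 (Python 3.11.15). Genes came from RefSeq (GRCm38.p6), with a listed start for 17492 of 21887; for 4395 both gene ends stood in for the start, which can place a 3′ end among the starts. Quintiles, terciles and deciles were formed by rank. The overlap and offset steps were tested on simulated data for 5543 neuron H3K4me3 peaks, where all 1033 planted overlaps were recovered. Each simulated CHD4 peak was placed inside its H3K4me3 peak, as in 32.2% of the real pairs. The result therefore checks the code and not the overlaps of the data.

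The members, gene lists and named genes were chosen with earlier results of these data known. Named were 10 fixed genes, the widest H3K4me3 and strongest CHD4 promoter peaks with and without the other mark, the strongest CHD4 peaks with a shared maximum, the largest offsets, and in each list the members with the strongest CHD4 or widest H3K4me3; other members were named after their values were seen. The alternatives tried were windows of 500 bp and 2.5 kb, covered shares, other rankings, and the stronger or narrower 50% of peaks; genes with a listed start only were added after seeing the data. Some genes that the rule names are not reported here.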

Additional observations from a re-analysis of the deposited data

How the results depend on the processing

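Of 62 alternative values of the main results, 40 stayed within their counting interval or within 1.5 times the count, 21 moved and 1 changed sign; the cause was not tested. For H3K4me3 peaks the difference between the widest and narrowest quintile, 40.89 percentage points, was 30.84 with at least 50% of the peak covered. It was 25.69 with the stronger 50% of CHD4 peaks, a shorter list that lowers both shares. The widest and narrowest shares were then 27.64% and 1.956%, against 48.62% and 7.733% with all CHD4 peaks. For total signal, 38.58 became 30.49 and 20.62 in the same settings, and ranking by highest or mean signal gave -0.08889 and 1.067. At promoters, 38.3 for width and 36.83 for total signal became 23.81 and 20.03 with the stronger 50% of CHD4 peaks and 6.862 and 17.8 with the narrower 50%. The CHD4 share of genes without H3K4me3, 3.163%, was 3.491% with 2.5 kb windows, 1.721% and 1.13% with the stronger and narrower CHD4 peaks, 4.385% with the stronger H3K4me3 peaks and 2.844% with listed starts only. With the stronger 50% of both lists, genes with both fell to 468 and with H3K4me3 alone to 3061, and the CpG ratio at genes with CHD4 alone was 0.6705. The median distance between maxima was 350 bp, with 61.07% within 500 bp, for CHD4 peaks narrower than the median. For the stronger 50% by total signal it was 912.5 bp, with 39.58%. Counts of list members with both moved by over 1.5 times in 0 of 27 lists at 500 bp, 2 at 2.5 kb, 18 with the stronger 50% of both lists and 8 with listed starts only. No paired analysis was possible because each antibody and state has 1 library and no test was run. Depth is unknown, so the length of either list can limit every share.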
